A study of Mus musculus with 18 samples.

Results

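The mouse olfactory receptor genes, whose symbols begin with Olfr, were followed here at their promoters by ATAC-seq. In this assay the enzyme Tn5 inserts sequencing adapters where chromatin is accessible. Members were all windows of the deposited promoter table whose gene name was Olfr followed by a number, with identical windows kept once. This gave 1122 windows, from 1129 rows and 1125 gene names, out of 26065 unique promoter windows (4.30%). Each window reached 1 kb to either side of a listed transcription start in the mouse build mm9, apart from 2 windows that were wider.

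Olfactory receptors are G protein coupled receptors that sense odorants, and they form the largest gene family of the mouse. In the nose, each olfactory sensory neuron expresses a single allele of a single receptor gene, while the other receptor genes are packed into compact heterochromatin. The transcription factor Lhx2, factors of the Ebf family and the cofactor Ldb1 act at the enhancers that select the expressed receptor. Outside the nose the genes are largely silent, although transcripts of some receptors have been described in other tissues, the brain included.

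The study compared central amygdala (CeA) and cortex, the latter dissected as PFC, in 18 libraries of 50000 sorted nuclei each. All mice were C57BL/6J and 2 to 3 months old. SOM+ nuclei were gated on a nuclear H2B-GFP carried by somatostatin cells of mice with a WT genotype. They came from control and from fear-conditioned mice, with 2 libraries for each combination of region and treatment. Bulk nuclei were sorted with a DNA stain and no cell type marker. For each region, 3 bulk libraries came from mice that lack Erbb4 in SOM+ cells (KO) and 2 from mice called WT in the sample titles. The genotype entry of these WT libraries reads as the KO, so their group rests on the titles, and the treatment entry of all bulk libraries reads Control. The driver behind the GFP and the deletion is not given in the sources used here. The sort is described as giving technical replicates, so libraries of a group may share mice, and the p values then measure only the spread between these libraries.

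Promoter counts per library ranged from 2648959 to 14668694, and the Olfr windows held 0.139% to 0.691% of them. In the 8 SOM+ libraries the summed level of the 3 GABAergic markers lay between 222.5 and 253.3 counts per 1000000 promoter counts (CPM), against 153.8 to 239.9 in CeA bulk and 53.3 to 64.0 in cortex bulk nuclei. The summed oligodendrocyte markers lay between 6.97 and 22.4 CPM in SOM+ and between 39.2 and 69.9 CPM in bulk nuclei. The somatostatin window itself overlapped between the 4 kinds of nuclei, from 7.81 to 26.4 CPM. In 4 of the 10 bulk libraries, Y-linked promoters went against the labelled sex. The second KO library of each region, labelled male, had 0 counts there, and the first WT library of each region, labelled female, had 39.9 CPM in CeA and 95.2 CPM in cortex. Counts of called members from bulk nuclei are therefore also given with sex left out of the model, or taken from the Y-linked promoters. The third cortex KO library stood apart, with a chi-square per degree of freedom of 14.8 against the first and 8.55 against the second, where the other pairs of replicates had 3.30 to 6.06. The Erbb4 promoter gave 28.8 to 39.6 CPM in CeA bulk and 26.0 to 45.8 CPM in cortex bulk nuclei. The position of the deleted part is not given in the sources used here, so this window does not check the knockout.

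Sequences are shown first for the members on which the results turn. Of the 1122 windows, 932 (930 symbols) matched a promoter in the RefSeq table of build GRCm38.p6, which gives the 250 bases before each listed start. The spacing between neighbouring receptor starts was the same within 2 bases in both builds for 817 of 881 pairs (92.7%). Olfr452 had the highest level of all members, Olfr1414 and Olfr577 were highest in cortex bulk nuclei, and Olfr15 was among the highest in SOM+ nuclei. In these 4 sequences, the capitals mark the first 3 bases of the listed transcript.
Olfr452, chr6:42789791-42790043, plus strand: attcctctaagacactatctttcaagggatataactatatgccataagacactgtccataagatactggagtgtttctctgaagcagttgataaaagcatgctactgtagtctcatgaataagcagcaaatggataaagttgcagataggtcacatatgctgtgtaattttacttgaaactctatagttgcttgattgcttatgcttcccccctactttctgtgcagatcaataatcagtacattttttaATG
Olfr1414, chr1:92518513-92518765, minus strand: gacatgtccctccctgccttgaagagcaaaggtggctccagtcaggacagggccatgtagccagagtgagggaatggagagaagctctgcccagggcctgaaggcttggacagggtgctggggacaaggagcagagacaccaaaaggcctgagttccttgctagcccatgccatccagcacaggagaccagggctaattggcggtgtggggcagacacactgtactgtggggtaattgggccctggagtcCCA
Olfr577, chr7:102973988-102974240, minus strand: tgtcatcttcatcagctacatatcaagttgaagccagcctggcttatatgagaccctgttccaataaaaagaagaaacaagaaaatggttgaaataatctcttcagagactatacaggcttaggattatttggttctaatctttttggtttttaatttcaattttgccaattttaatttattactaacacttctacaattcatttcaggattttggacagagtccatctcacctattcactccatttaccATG
Olfr15, chr16:3838725-3838977, plus strand: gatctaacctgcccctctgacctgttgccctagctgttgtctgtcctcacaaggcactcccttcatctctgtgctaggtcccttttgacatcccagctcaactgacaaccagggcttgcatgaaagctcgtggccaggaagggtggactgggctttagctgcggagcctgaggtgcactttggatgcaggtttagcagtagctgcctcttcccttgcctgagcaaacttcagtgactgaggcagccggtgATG

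In 3 of these 4 sequences the listed transcript begins with ATG, the start codon. The same was true of 679 of the 930 Olfr symbols (73.0%), against 4.37% of 26081 other genes. Where a listed transcript has no untranslated first exon, its window may miss a promoter that lies further upstream, and the levels below are levels of these windows. Their median was 1.46 CPM per kb where the listed start was ATG and 1.52 CPM per kb elsewhere.

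A second pair of sequences is shown because both members were raised in cortex bulk nuclei and lie 34.1 kb apart. Olfr1392 and Olfr1391 aligned over 212 columns with 80.7% identity. Their local alignment score was 128.5, where the next highest among the 496 pairs of raised members was 47.5 and the median 14.5. The capitals mark the longest run they share, of 34 bases, which lies 130 to 97 bases before the start of Olfr1392 and 173 to 140 bases before that of Olfr1391. Of the 27025 promoters searched, 2 held this run, those of the pair.
Olfr1392, chr11:49293047-49293299, plus strand: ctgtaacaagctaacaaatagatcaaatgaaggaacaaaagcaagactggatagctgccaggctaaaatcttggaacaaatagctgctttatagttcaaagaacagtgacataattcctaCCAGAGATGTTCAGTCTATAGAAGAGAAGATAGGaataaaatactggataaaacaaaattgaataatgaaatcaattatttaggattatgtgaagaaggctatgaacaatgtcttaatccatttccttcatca
Olfr1391, chr11:49327163-49327415, plus strand: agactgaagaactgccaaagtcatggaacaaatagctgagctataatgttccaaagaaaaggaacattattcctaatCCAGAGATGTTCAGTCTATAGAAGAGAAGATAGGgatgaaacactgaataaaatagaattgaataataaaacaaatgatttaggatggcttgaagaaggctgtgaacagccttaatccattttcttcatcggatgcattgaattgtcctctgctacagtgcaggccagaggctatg

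Olfr promoters were poor in GC and in CpG. The 250 bases before the start held a median of 33.6% GC and 1 CpG in Olfr genes, against 52.8% and 6 in other genes. The TATA box TATAAA, on either strand, was present in 39.1% of Olfr and 12.0% of other promoters. The homeodomain core TAATTA, of the kind bound by Lhx2, was present in 18.2% and 4.42%, and the palindromic Ebf motif, TCCC and GGGA with 2 bases between them, in 0.430% and 0.801%. All 3 were searched on both strands and are matches of letters, not sites. TATAAA and TAATTA hold only A and T, and the shares were not corrected for GC, so no enrichment is read from them.

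Olfr promoters formed a narrow, low band. The level of a window was taken as the mean over the 8 groups of its CPM, scaled by the trimmed mean of M values (TMM), per kb of window. The median Olfr window had 1.49 CPM per kb, and 9.38% of all windows lay below it. From the 5th to the 95th percentile, Olfr levels ran only from 0.863 to 2.70 CPM per kb (3.12-fold). The median of all 26065 windows was 9.75 CPM per kb, 6.55 times the Olfr median, and their lower quartile was 3.19 CPM per kb. A window is called open here above the median of all windows and closed below the lower quartile.

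Of the 1122 Olfr windows, 1 was open, 31 lay between the 2 limits and 1090 (97.1%) were closed. Olfr452 was the only open one, with 11.9 CPM per kb. Just outside came Olfr1392 with 7.62, Olfr1414 with 5.83 and Olfr1391 with 5.35 CPM per kb. At the lower limit, Olfr461 (3.25), Olfr266 (3.25) and Olfr1423 (3.22) were just inside, and Olfr1033 (3.18), Olfr878 (3.11) and Olfr522 (3.09) just outside. These levels chose the classes and carry no test. The 32 windows above the lower limit are called raised below. The lowest closed windows with any counts were Olfr56 with 0.319 CPM per kb and both Olfr247 windows, with 0.0929 and 0.0486. The 2 Olfr1506 windows had 0 counts in all 18 libraries. How reads that map to several places were treated is not given in the sources used here, so these lowest values are uncertain. With the highest group mean in place of the mean of groups, 2 were open, Olfr452 with 25.7 and Olfr1392 with 21.6 CPM per kb.

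**Figure D1:**
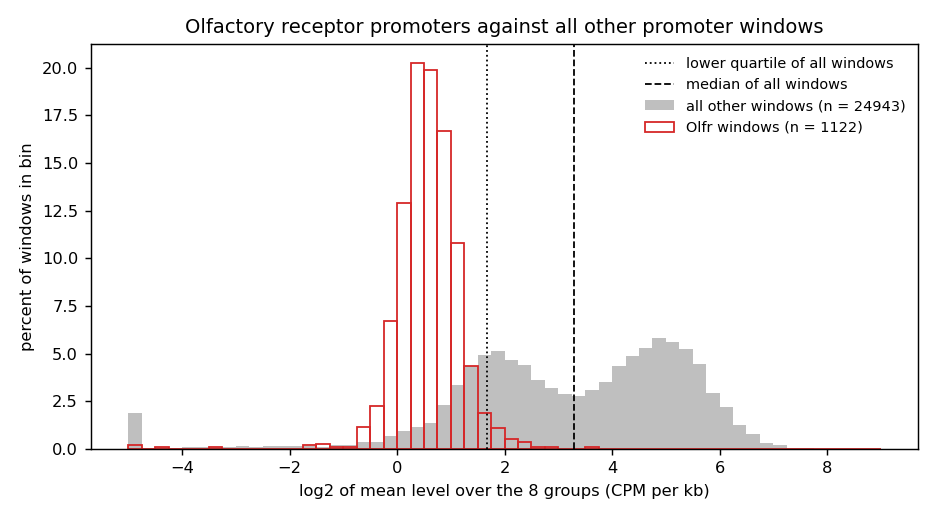
Levels of the 1122 Olfr windows (red outline) and of the 24943 other windows (grey bars), as percent of windows per bin of log2 mean level in CPM per kb; values under the axis are put in its first bin. The Olfr windows form 1 narrow peak left of the lower quartile of all windows (dotted, 3.19 CPM per kb), and only Olfr452 lies right of the median (dashed, 9.75).

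Other families of tissue-restricted genes were low too. The median was 0.905 CPM per kb for 345 vomeronasal receptor windows, 1.61 for 38 taste receptors, 2.47 for 15 trace amine receptors, 1.93 for 55 keratin-associated proteins and 1.87 for 42 beta defensins, against 30.1 for 93 cytosolic ribosomal protein windows. Taste receptors, keratin-associated proteins and trace amine receptors had larger shares above the lower quartile (21.1%, 18.2% and 20.0%) than Olfr genes (2.85%) and vomeronasal receptors (2.03%). These are descriptions of single sets, with no test.

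The low band itself was not equally high in all libraries. The median Olfr window had 1.24 ± 0.0800 CPM (SD, n = 2) in cortex SOM+ control and 1.38 ± 0.0337 (n = 2) in cortex SOM+ fear nuclei. In CeA SOM+ nuclei it was 2.29 ± 0.191 CPM in control (n = 2) and 2.56 ± 1.03 CPM in fear libraries (n = 2). CeA bulk nuclei had 3.34 ± 0.315 CPM in the KO (n = 3) and 4.04 ± 1.03 CPM in the WT (n = 2), and cortex bulk nuclei 4.04 ± 0.945 CPM in the KO (n = 3) and 3.97 ± 0.834 CPM in the WT (n = 2). The 4 cortex SOM+ libraries were the lowest, and the bulk groups overlapped one another. Vomeronasal receptor windows were lowest in cortex SOM+ nuclei too, with group means of 0.786 and 0.760 CPM. The other 6 groups had 1.54 to 2.05 CPM, and CeA SOM+ (1.83 and 2.05) and bulk groups overlapped there. Taste receptor, trace amine receptor, keratin-associated protein and beta defensin windows followed the Olfr order, lowest in cortex SOM+ and highest in bulk groups. Taste receptor windows had 1.43 and 1.46 CPM in cortex SOM+, 2.74 and 3.07 in CeA SOM+ and 4.44 to 5.07 in bulk groups. The median of all windows stayed between 17.2 and 19.5 CPM in the group means. What set this difference between libraries was not tested.

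**Figure D2:**
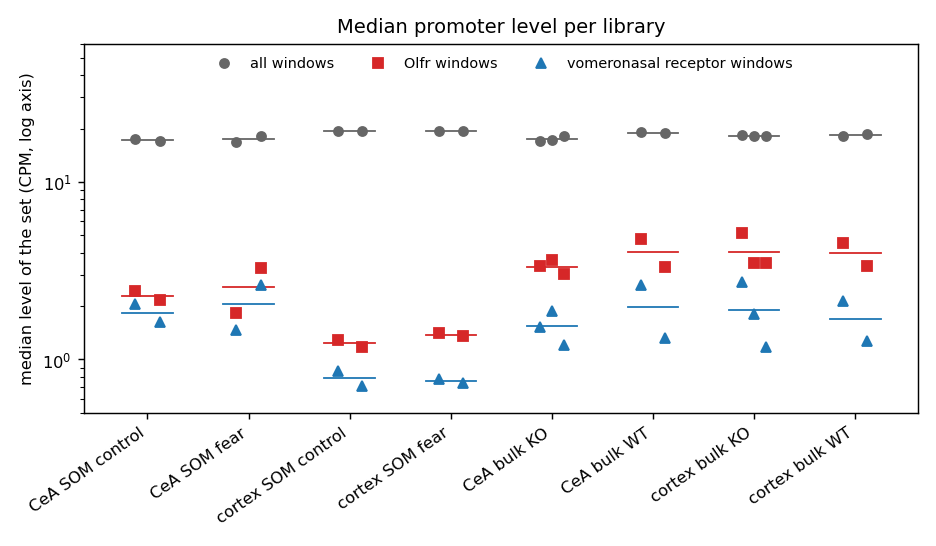
Median level in CPM (log axis) of all windows, Olfr windows and vomeronasal receptor windows in each library, with 1 point per library and a line at the mean of each of the 8 groups. Cortex SOM+ libraries have the lowest Olfr medians (group means 1.24 and 1.38 CPM), while the medians of all windows differ little.

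Because of this shift, each comparison of Olfr members is given at 3 scalings. The first, TMM with the quasi-likelihood test of edgeR, is the main one. The second, cyclic loess, evens out differences that depend on level. The third sets the library size to the summed counts of the closed Olfr windows, so that a member is read against its own family; it was added after the data had been seen, and the closed windows that define it are members too. On the third scale the median of all windows moved to -0.76 in the SOM+ comparison of regions, 0.67 and 1.45 in those of SOM+ with bulk nuclei in CeA and cortex, and -0.81 in the interaction below, all as log2 fold changes. It was 0.12 in the bulk comparison of regions, -0.21 for the knockout in cortex and -0.12 for fear conditioning in cortex. Changes on that scale are changes relative to closed Olfr windows. A member is called at an adjusted p under 0.05, with the adjustment over all windows tested.

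Olfr452 was higher in CeA than in cortex in both kinds of nuclei. CeA SOM+ libraries had 43.4 and 31.2 CPM from control and 37.6 and 43.7 CPM from fear-conditioned mice. Cortex SOM+ libraries had 3.88 and 2.83 CPM from control and 7.17 and 3.70 CPM from fear-conditioned mice. The regions did not overlap, and the lowest CeA library was several times the highest cortex library. Bulk nuclei showed 56.7, 45.0 and 52.6 CPM in CeA KO and 25.8 and 36.1 CPM in CeA WT. In cortex they showed 10.1, 10.4 and 14.6 CPM in KO and 8.65 and 9.49 CPM in WT. Here too every CeA library was above every cortex library, and the CeA WT libraries were the lowest of the CeA.

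The log2 fold change of Olfr452 between CeA and cortex was 3.21 ± 0.19 (SE, adjusted p = 1.89e-58) in SOM+ and 1.96 ± 0.16 (adjusted p = 8.81e-08) in bulk nuclei. It was 3.22 and 1.883 with cyclic loess, and 2.41 and 2.05 relative to closed Olfr windows. In SOM+ nuclei, Olfr452 had a less extreme adjusted p of 2.51e-10 with cyclic loess in limma and 6.79e-15 relative to closed Olfr windows in edgeR. Over the Olfr median of the same library it stood 16.5 ± 3.27 times (SD, n = 4) in CeA SOM+, 12.6 ± 4.91 times (n = 5) in CeA bulk, 3.31 ± 1.23 times (n = 4) in cortex SOM+ and 2.77 ± 0.923 times (n = 5) in cortex bulk nuclei. In the cortex it still lay above the median receptor in both kinds of nuclei.

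Olfr452 (chr6:42739040-42741039, mm9) lies in a row of receptor genes next to Tcaf1, a regulator of TRP channels. Its 7 receptor neighbours within 140 kb had means of 1.17 to 11.5 CPM over the 4 kinds of nuclei. Olfr453, 46.0 kb away, was the nearest to it in pattern, with 9.77 ± 3.24 and 3.18 ± 0.880 CPM in CeA and cortex SOM+ nuclei (n = 4 each) and 11.5 ± 1.82 and 6.31 ± 2.83 CPM in CeA and cortex bulk nuclei (n = 5 each). The log2 fold change of Olfr453 was 1.67 ± 0.28 in SOM+ nuclei and was called at all 3 scalings in both kinds of nuclei. Olfr38, 28.0 kb away on the same side, had 5.14 and 2.42 CPM in SOM+ nuclei, and Olfr450, 27.4 kb away on the other side, 5.11 and 1.78 CPM. Tcaf1, 97.0 kb away, ran the other way in bulk nuclei, with 88.1 ± 16.4 CPM in CeA and 134.6 ± 39.1 CPM in cortex.

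**Figure D3:**
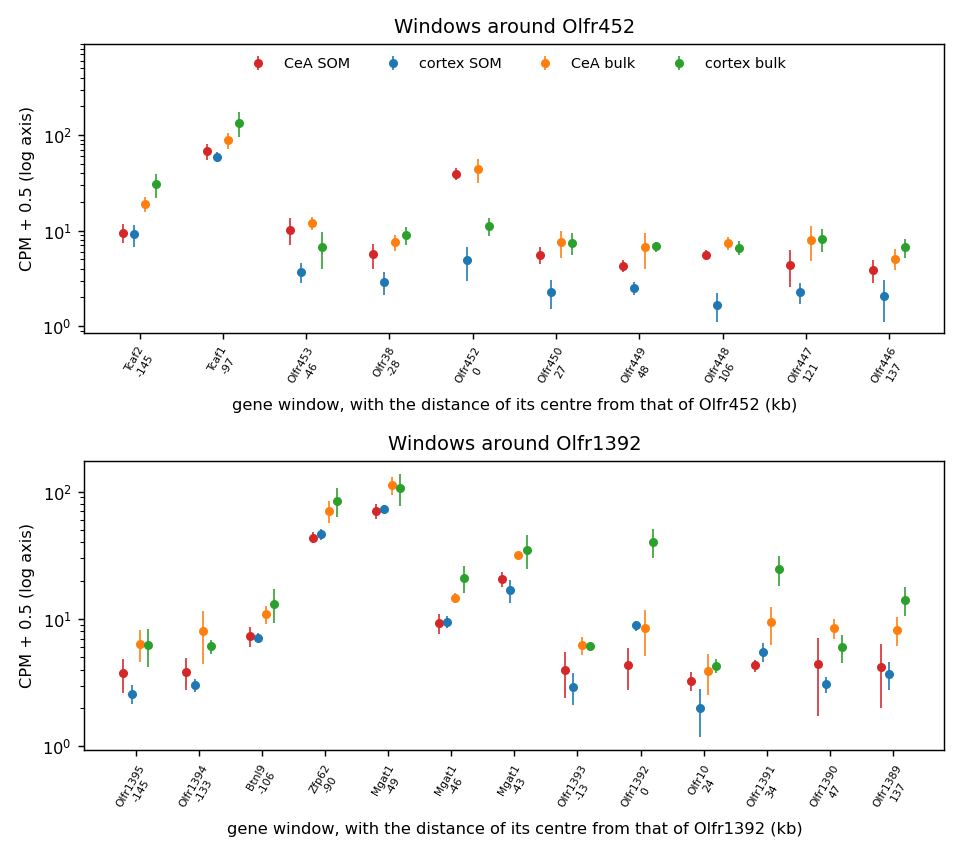
Mean level (CPM plus 0.5, log axis) of the windows within 150 kb of Olfr452 (top) and Olfr1392 (bottom), in order of position, in 4 kinds of nuclei; bars are the SD over 4 SOM+ or 5 bulk libraries, with the lower bar kept at or above 0 CPM. Olfr452 stands out from its receptor neighbours in both kinds of CeA nuclei, and Olfr1392 and Olfr1391 stand out in cortex bulk nuclei (39.9 and 24.1 CPM).

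A second set ran the opposite way, with its highest levels in cortex bulk nuclei. Olfr1392 (chr11:49105799-49107798) had 30.3, 38.9 and 43.9 CPM in cortex KO and 30.8 and 55.7 CPM in cortex WT bulk nuclei. In CeA bulk nuclei it had 7.94, 6.41 and 5.63 CPM in KO and 6.08 and 13.6 CPM in WT. The 2 regions did not overlap, and the log2 fold change was -2.32 ± 0.17 (adjusted p = 2.16e-08). In SOM+ nuclei it had 7.55 and 8.15 CPM in cortex control and 9.51 and 8.38 in cortex fear, against 4.08 and 3.23 in CeA control and 2.20 and 5.92 in CeA fear. The log2 fold change there was -1.12 ± 0.29 (adjusted p = 0.00042), and -1.96 relative to closed Olfr windows.

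Its near copy Olfr1391 had 24.1 ± 6.50 CPM in cortex bulk nuclei and 8.88 ± 3.11 CPM in CeA bulk nuclei (n = 5 each, log2 fold change -1.38 ± 0.20). In SOM+ nuclei it had 5.00 ± 0.943 CPM in cortex and 3.82 ± 0.467 CPM in CeA (n = 4 each), and the difference was called relative to closed Olfr windows (-1.14) and with cyclic loess (-0.74) but not with TMM (-0.34). How reads that fit both copies were treated is not given in the sources used here, so the values of this pair are uncertain. Between them, Olfr10, 24.3 kb from Olfr1392, had 3.80 ± 0.512 CPM (n = 5) in cortex bulk nuclei, close to the Olfr median there.

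Olfr1414 (chr1:94414093-94416092) had 34.6, 24.5 and 25.2 CPM in cortex KO and 19.6 and 22.6 CPM in cortex WT bulk nuclei. In CeA bulk nuclei it had 5.35, 8.42 and 7.03 CPM in KO and 12.49 and 10.6 CPM in WT, with no overlap and a log2 fold change of -1.41 ± 0.19. Olfr577 (chr7:110121505-110123504) had 25, 25.3 and 27.1 CPM in cortex KO and 23.1 and 20.5 CPM in cortex WT bulk nuclei. Its CeA bulk levels were 7.64, 7.41 and 8.44 CPM in KO and 10.03 and 10.6 CPM in WT, and the log2 fold change was -1.39 ± 0.17. Olfr577 sits inside a dense row of receptors on chromosome 7, and its neighbours within 30 kb on either side had 3.19 to 5.15 CPM in the same cortex bulk nuclei. In cortex SOM+ nuclei Olfr577 had only 2.91 and 2.13 CPM in control and 3.82 and 4.31 CPM in fear libraries.

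Olfr1392 was called lower in CeA than in cortex bulk nuclei at each of the 3 scalings, as were 3.27% of all windows. So were the raised members Olfr1391, Olfr1396, Olfr1414, Olfr1423, Olfr433 and Olfr577. Raised members were chosen by their mean over the groups, so these 7 could enter that set through cortex bulk nuclei. The summed level of the glutamatergic markers Slc17a7, Slc17a6 and Neurod6 moved with these members. It lay between 102.0 and 140.7 CPM in cortex bulk nuclei, between 26.9 and 43.4 CPM in CeA bulk, between 20.5 and 34.1 CPM in cortex SOM+ and between 15.4 and 25.6 CPM in CeA SOM+ nuclei. The summed oligodendrocyte markers were highest in cortex bulk nuclei too, with 48.3 to 69.9 CPM. They had 39.2 to 45.8 CPM in CeA bulk, 6.97 to 12.6 in cortex SOM+ and 11.9 to 22.4 in CeA SOM+ nuclei. The part of either marker list in the result was not tested. In bulk nuclei, few nuclei with an accessible window and many with a slightly accessible one cannot be told apart.

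Another set was higher in SOM+ than in bulk nuclei when read against the family, as a description. In the group means the median of all windows was higher on that scale too. In cortex it stood 15.8 and 14.1 times over the Olfr median in SOM+ control and fear nuclei. Bulk KO and WT nuclei had 4.66 and 4.75 times. In CeA these values were 7.54 and 7.35 in SOM+ and 5.28 and 4.85 in bulk nuclei. Relative to closed Olfr windows, SOM+ control was called higher than bulk WT at 31.8% of all windows in CeA and 64.0% in cortex. Olfr15 (chr16:3837975-3839974) had SOM+ levels of 15.3 and 13.5 (control) and 18.5 and 8.22 (fear) CPM in CeA, and of 8.41 and 12.6 (control) and 9.20 and 10.1 (fear) CPM in cortex. Its bulk levels were 6.72, 5.65 and 7.63 (KO) and 11.5 and 5.30 (WT) CPM in CeA, and 7.70, 6.37 and 3.91 (KO) and 8.65 and 1.69 (WT) CPM in cortex. The CPM ranges of SOM+ and bulk nuclei overlapped. Over the Olfr median of the library, Olfr15 stood 6.29 ± 3.10 and 7.80 ± 1.98 times in CeA and cortex SOM+ nuclei (n = 4 each) and 2.02 ± 0.451 and 1.37 ± 0.577 times in CeA and cortex bulk nuclei (n = 5 each). In cortex, SOM+ control against bulk WT gave a log2 fold change of 1.01 ± 0.44 with TMM (adjusted p = 0.0443), 1.63 with cyclic loess and 2.59 relative to closed Olfr windows. With TMM the call was lost with sex left out (adjusted p = 0.0706) or taken from Y-linked promoters (0.0586), without the first (0.0641) or second (0.227) cortex SOM+ control, and without the second cortex WT library, where the log2 fold change was 0.32 (0.595). It was lost with total count scaling too (0.186).

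On the same scale, over the Olfr median of the library, cortex SOM+ nuclei had the highest mean for 14 of the 32 raised members. Olfr543 stood 8.38 ± 2.87 times, Olfr215 7.77 ± 1.97 times and Olfr71 7.37 ± 1.59 times above that median (n = 4 each). Olfr225 and Olfr222, of the same cluster on chromosome 11, stood 6.14 ± 1.34 and 5.80 ± 0.975 times above it, and Olfr225 was the only raised member with all 8 SOM+ libraries above all 10 bulk libraries on this scale. Cortex bulk nuclei had the highest mean for 10 raised members, CeA SOM+ nuclei for 4 and CeA bulk nuclei for 4. By CPM alone the split was 3, 14, 5 and 10. Raised members were chosen by their mean over the groups, so one that is high in a single kind of nuclei could enter through it, and these counts describe the set without a test. The share of all windows with the same patterns on this scale was not counted. The median of all windows was also highest over the Olfr median in cortex SOM+ nuclei. Its group means there were 15.8 and 14.1 times, against 4.66 to 7.54 times in the other groups.

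**Figure D4:**
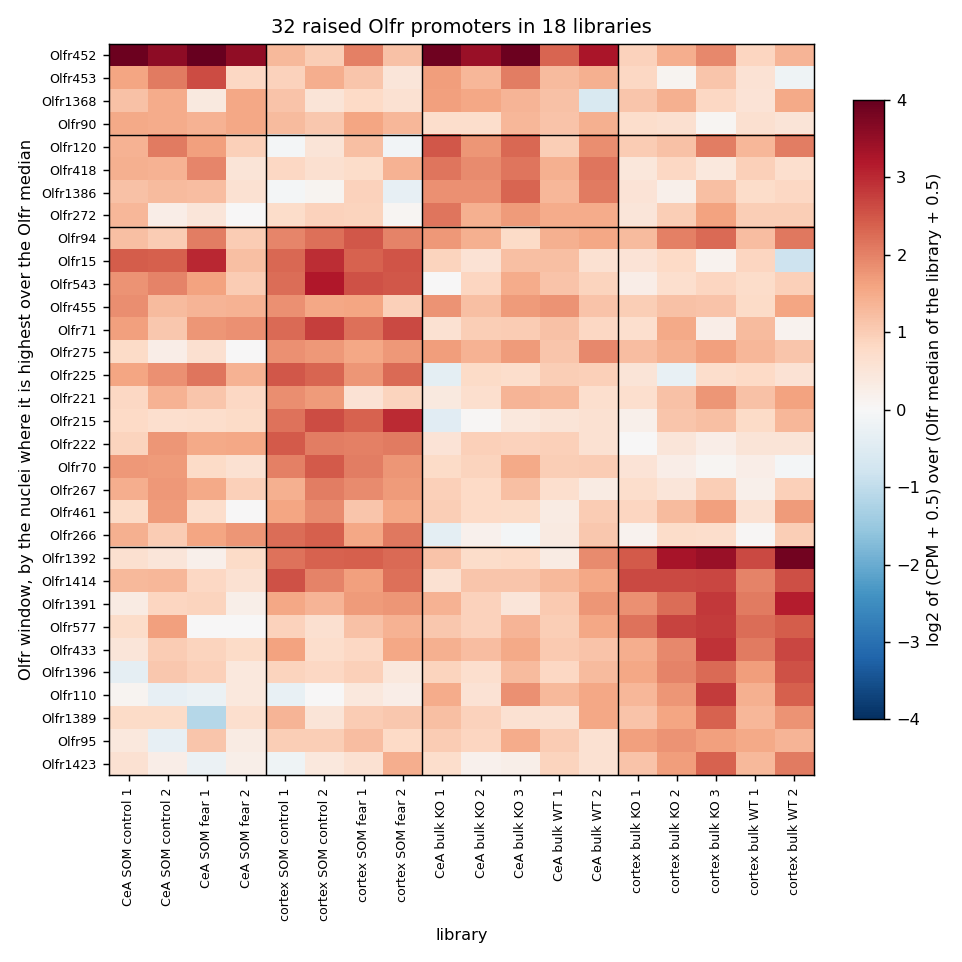
Level of each of the 32 raised members in each of the 18 libraries, as log2 of CPM plus 0.5 over the Olfr median of that library plus 0.5 (red above, blue below; the scale ends at 4). Rows are grouped by the kind of nuclei where the member is highest over the Olfr median, from top to bottom CeA SOM+, CeA bulk, cortex SOM+ and cortex bulk. Olfr452 is dark in both kinds of CeA nuclei, and the lowest block, led by Olfr1392, in cortex bulk nuclei.

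Between regions, the number of Olfr promoters called in SOM+ nuclei rested on the scaling. With TMM, 318 of the 1104 members that passed the filter on low counts were called, where 48.3% of all windows were. Of these, 315 were higher in CeA and 3 lower (21.1% and 27.1% of all windows), with a median log2 fold change of 0.88 over the members tested and 0.04 over all windows. With cyclic loess, 66 were called (42.0% of all windows), 24 higher and 42 lower (20.9% and 21.1%), and the median was -0.09. Read against closed Olfr windows, 102 were called (55.5% of all windows), 43 higher and 59 lower (2.25% and 53.3%), and the median was 0.06. At all 3 scalings, 16 members were higher and 3 lower in CeA (1.76% and 19.5% of all windows). The higher ones included Olfr452, Olfr120, Olfr453, Olfr1386 and Olfr98, and the 3 lower ones were Olfr1392, Olfr215 and Olfr538. Leaving out 1 library took the count with TMM to between 182 and 447, and it was 182 to 197 without the first CeA control, second CeA fear, second cortex control, or either cortex fear library.

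Olfr120 (chr17:37861944-37863943) had 7.15 and 10.8 CPM in CeA control and 6.79 and 6.90 in CeA fear SOM+ nuclei, against 1.19 and 1.89 in cortex control and 3.90 and 1.23 in cortex fear. The regions did not overlap, and the log2 fold change was 1.98 ± 0.34. Olfr215 (chr6:116531963-116533962) ran the other way, with 4.40 ± 1.15 CPM in CeA and 10.2 ± 2.73 CPM in cortex (n = 4 each, -1.16 ± 0.26). Olfr538 was near the floor in both regions, with 0.468 ± 0.146 and 1.63 ± 0.619 CPM, and its call (-1.74 ± 0.70, adjusted p = 0.0300) was lost without any 1 of 6 libraries (the first fear or either control library of CeA, either control or the first fear library of cortex), where its adjusted p was 0.0556 to 0.226.

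In bulk nuclei, 44 of 1113 members tested were called between regions, where 16.9% of all windows were. Of these, 12 were higher in CeA and 32 lower (6.90% and 9.98% of all windows), with a median log2 fold change of -0.10. With cyclic loess 77 were called (20.6% of all windows), 11 higher and 66 lower (9.65% and 11.0%). Relative to closed Olfr windows 39 were called (8.99% of all windows), 14 higher and 25 lower (5.72% and 3.27%). At all 3 scalings, 11 were higher and 24 lower (4.73% and 3.27% of all windows). With sex left out or taken from the Y-linked promoters, 38 were called in either case. The count was 11 to 57 with 1 library left out, and it was 20 and 13 without the first and second CeA WT library and 22 and 11 without the first and second cortex WT library. Olfr98 had 6.53 ± 1.61 CPM in CeA and 1.74 ± 0.956 CPM in cortex (n = 5 each, log2 fold change 2.22 ± 0.38). Olfr418 had 15.3 ± 1.26 and 6.73 ± 1.67 CPM (1.15 ± 0.22, adjusted p = 0.0014), and was not called without the second CeA WT (adjusted p = 0.0732) or the second cortex WT library (0.0635).

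**Figure D5:**
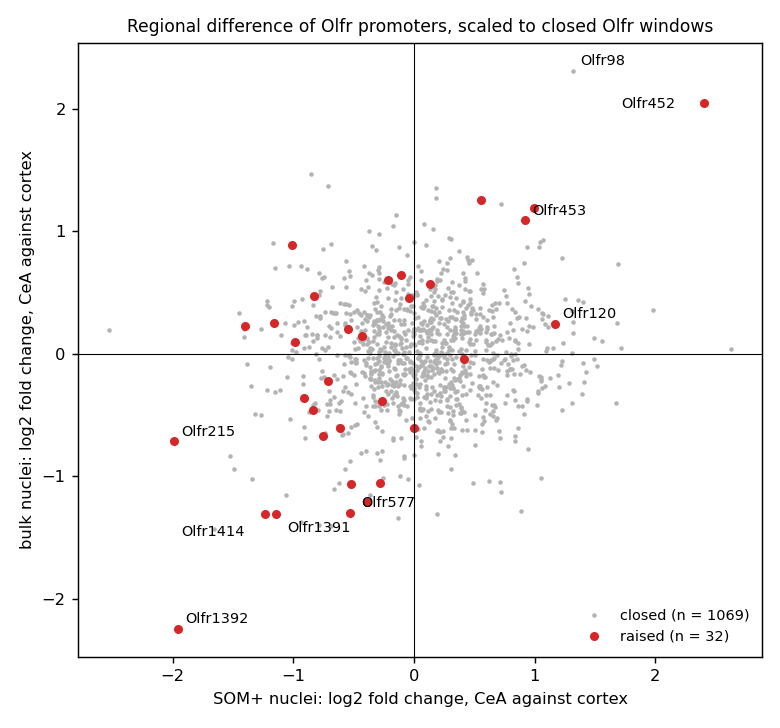
Log2 fold change between CeA and cortex for the 1101 Olfr windows tested in both fits, in SOM+ nuclei (x axis) and bulk nuclei (y axis), relative to closed Olfr windows; raised members are red. Olfr452 lies far to the upper right (2.41 and 2.05) and Olfr1392 far to the lower left (-1.96 and -2.25), away from the cloud of closed members.

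The direction was shared by both kinds of nuclei for Olfr452, Olfr453, Olfr1386, Olfr98 and Olfr323, called higher in CeA in each, and for Olfr1392, called lower in each, at all 3 scalings. SOM+ and bulk libraries are separate, so these are separate sets of counts. No raised member was called in opposite directions at all 3 scalings. In the separate fits, 1.76% (SOM+) and 4.73% (bulk) of all windows were called higher at all 3 scalings, and 19.5% and 3.27% lower. The share of all windows called the same way, or opposite ways, in both fits was not counted, so these overlaps are descriptions.

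Whether the regional difference itself differed between kinds of nuclei was tested as an interaction of SOM+ control with bulk WT. It was called for 48 of 1116 members, where 24.7% of all windows were called, with 47 positive and 1 negative (9.46% and 15.2% of all windows). On the scale of closed Olfr windows it was called for 25 members (27.4% of all windows), 8 positive and 17 negative (0.467% and 27.0%), and with cyclic loess for 26 (26.7%), 22 positive and 4 negative (14.4% and 12.3%). Olfr120, Olfr577, Olfr113, Olfr1451, Olfr228, Olfr26 and Olfr2 were positive, and Olfr520 negative, at all 3 scalings (0.440% and 10.4% of all windows). The count ranged from 11 to 64 with 1 library left out, and from 11 to 23 without the first CeA SOM+ control, the second cortex SOM+ control, the second CeA WT or either cortex WT library. It was 34 with sex left out or taken from Y-linked promoters.

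SOM+ control was lower than bulk WT at many Olfr promoters with TMM. In CeA, 95 of 1116 members were called, where 23.2% of all windows were, and all 95 were lower in SOM+ (9.58% of all windows; 0 were higher, where 13.7% of all windows were), with a median of -0.75. In cortex, 646 were called, where 62.1% of all windows were, with 3 higher and 643 lower (31.5% and 30.6% of all windows) and a median of -1.63. With scaling to closed Olfr windows 41 were called in CeA (32.7% of all windows), 27 higher and 14 lower (31.8% and 0.915%), and 170 in cortex (66.7%), 96 higher and 74 lower (64.0% and 2.67%). With cyclic loess 64 were called in CeA (22.1% of all windows), 20 higher and 44 lower (10.8% and 11.3%), and 216 in cortex (58.1%), 48 higher and 168 lower (29.6% and 28.5%). At all 3 scalings 14 members were lower in CeA and 67 in cortex (0.903% and 2.57% of all windows), while 0 in CeA and 3 in cortex were higher (9.01% and 25.3%). With sex left out or taken from Y-linked promoters, TMM called 93 and 87 in CeA and 651 and 644 in cortex. Leaving out 1 of the 4 libraries compared gave 19 to 52 calls in CeA, so each of them moved the count past 1.5 times, and 330 to 541 in cortex, with 330 without the second SOM+ control and 406 without the first WT library.

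Among the members lower in SOM+ at all 3 scalings, Olfr110 (chr17:37628413-37630412) had 1.08 ± 0.149 CPM in cortex SOM+ control and 16.4 ± 4.79 CPM in cortex bulk WT nuclei (n = 2 each, log2 fold change -3.91 ± 0.50 with TMM and -2.42 relative to closed Olfr windows). In CeA it had 2.15 ± 0.752 and 11.6 ± 1.33 CPM (n = 2 each, -2.35 ± 0.49 and -1.67). In cortex, Olfr577 was lower in SOM+ nuclei by a log2 fold change of -3.08 ± 0.34 with TMM and -1.60 relative to closed Olfr windows, and Olfr1391 by -2.65 ± 0.35 and -1.16. Olfr1234 (-2.75 ± 0.47 and -2.06) and Olfr1033 (-2.56 ± 0.56 and -1.92) were the other 2 with the smallest p in CeA. The higher ones in cortex were Olfr520 (1.59 ± 0.51), Olfr1329 (1.49 ± 0.62) and Olfr15. Olfr520 was not called without the first cortex SOM+ control (adjusted p = 0.0926) or the second cortex WT library (0.180), and Olfr1329 without the first SOM+ control (0.403), the first WT (0.0895) or the second WT library (0.184).

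No Olfr promoter was called for fear conditioning. In CeA SOM+ nuclei 0 of 1104 members were called, where 0.0% of all windows were, and 31 had an unadjusted p under 0.05. In cortex SOM+ nuclei 0 were called (0.0% of all windows), and 20 had an unadjusted p under 0.05. DESeq2 called 0 in both regions, with 24 and 9 at an unadjusted p under 0.05, and cyclic loess with limma called 0, with 80 and 23. Relative to closed Olfr windows 0 were called, with 49 and 38. The share of all windows at an unadjusted p under 0.05 was not counted, so these counts are not read as a result. The median Olfr log2 fold change was 0.08 in CeA and 0.10 in cortex. In CeA it was 0.49 without the first fear library and -0.37 without the second, so its sign rested on 1 library. The member with the smallest p in CeA was Olfr1046 (chr2:86056866-86058865), with 0.659 ± 0.210 CPM in control and 4.13 ± 2.99 CPM in fear nuclei (n = 2 each, log2 fold change 2.65 ± 0.88, adjusted p = 1.00). In cortex it was Olfr452, with 3.36 ± 0.741 and 5.44 ± 2.46 CPM (n = 2 each, 0.74 ± 0.30, adjusted p = 1.00), and the 2 groups overlapped.

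The Erbb4 knockout likewise gave no call, with libraries grouped by their titles. Erbb4 was deleted in SOM+ cells, while these nuclei were sorted without a cell type marker. A change confined to SOM+ cells could therefore be missed. The second KO and first WT library of each region went against their labelled sex, and whether their group labels are right was not tested. In CeA bulk nuclei 0 of 1113 members were called (0.0% of all windows) and 33 had an unadjusted p under 0.05. In cortex bulk nuclei 0 were called (0.0% of all windows) and 47 had one. DESeq2 called 0 in both regions, with 33 and 51 at an unadjusted p under 0.05, and cyclic loess with limma called 0, with 102 and 47. Relative to closed Olfr windows 0 were called, with 42 and 36. With sex left out 0 were called, with 36 and 12, and with sex from the Y-linked promoters 0, with 40 and 11. Here too the share of all windows at an unadjusted p was not counted, and these counts are not read as a result. The smallest p in CeA was that of Olfr1392, with 6.66 ± 1.18 CPM in KO (n = 3) and 9.84 ± 5.31 CPM in WT (n = 2, log2 fold change -0.90 ± 0.30, adjusted p = 0.999). It was -0.45 with sex left out and -0.46 with sex from the Y-linked promoters. In cortex it was that of Olfr952 (chr9:39233655-39235654), with 3.61 ± 0.905 CPM in KO and 0.742 ± 0.453 CPM in WT (3.11 ± 0.86, adjusted p = 0.945). Without the third cortex KO library, the one that stood apart, 984 of all windows and 2 members were called, Olfr952 among them (3.17, adjusted p = 0.0427). The median Olfr log2 fold change for the knockout in CeA was 0.04 with the labelled sex, -0.26 with sex left out and -0.25 with sex from the Y-linked promoters. In cortex it was 0.30, 0.012 and 0.039.

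Raised members lay nearer to genes of other families than closed ones did, which is given as a description with no test. The nearest window of another gene was within 50 kb for 21 of the 32 raised members (65.6%) and for 229 of the 1090 closed ones (21.0%). The median distance was 38.6 kb for raised and 150.0 kb for closed members, and no raised window overlapped that of another gene. Olfr15 lay 8.25 kb from the zinc finger gene Zfp174, Olfr94 4.08 kb from Ubd, a ubiquitin-like modifier, and Olfr433 10.2 kb from Ifi205, of the interferon-induced Ifi200 family. Olfr452, 97.0 kb from Tcaf1, Olfr120, 242.5 kb from H2-M2, and Olfr577, 278.5 kb from Usp17ld, were among the raised members farther away.

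The Olfr windows fell into 49 clusters on 17 chromosomes, with gaps of over 1 Mb between clusters, and the 32 raised ones lay in 17 clusters on 11 chromosomes. The largest cluster, 225 windows on chromosome 2, held 0 raised members, and so did all 136 windows of chromosome 9 and all 68 of chromosome 10. A cluster of 19 windows on chromosome 11 held 5, Olfr1386, Olfr1389, Olfr1391, Olfr1392 and Olfr1396, of which Olfr1386 was highest in CeA bulk nuclei and the other 4 in cortex bulk nuclei. The cluster of 47 windows on chromosome 17, in the extended major histocompatibility region, held Olfr90, Olfr94, Olfr95, Olfr110 and Olfr120.

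Raised promoters were also less poor in GC. The median was 40.4% GC over the 250 bases before the start for the 32 raised and 33.6% for the 898 closed symbols with a sequence. When the symbols were split by GC, 1 of the 328 poorest in GC, 9 of the 296 in between and 22 of the 306 richest were raised. Across the 930 members, GC and level had a Pearson correlation of 0.287, which is given as a description, since members of a cluster share sequence. Of the printed sequences, Olfr1414 (59.2% GC) and Olfr15 (56.0%) were rich in GC, while Olfr452 (36%), Olfr577 (33.2%) and Olfr1392 (32.4%) were not. The TATA box was in 7 of the 32 raised promoters (21.9%) and in 39.8% of the closed ones, the homeodomain core in 5 (15.6%) and 18.3%, and the Ebf motif in 0 and 0.445%. These motif shares were not corrected for GC either. A run of 36 or more bases shared with another member was found in 133 of the 930 symbols (14.3%), whose median level was 1.22 CPM per kb against 1.53 for the rest, and Olfr120 was the only raised member among them.

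Of 9 receptors that are well studied elsewhere, named after the values had been seen, 0 were raised. Olfr78, a receptor for short-chain fatty acids that is also expressed in the carotid body and in renal vessels, had 9.12 ± 1.24 CPM in cortex bulk nuclei and 3.29 ± 0.883 CPM in CeA bulk nuclei (n = 5 each). It was called lower in CeA at all 3 scalings, with a log2 fold change of -1.495 ± 0.29 with TMM. Olfr2, the octanal receptor, had 8.18 ± 2.02 and 3.09 ± 1.30 CPM in the same nuclei (-1.35 ± 0.33, called at all 3 scalings). In SOM+ nuclei it ran the other way, with 2.57 ± 1.16 CPM in CeA and 0.825 ± 0.517 CPM in cortex (n = 4 each), a difference called with TMM (1.74 ± 0.58) and not at the other 2 scalings. Olfr16, a receptor also found in sperm, had 8.62 ± 1.76 and 8.18 ± 1.201 CPM in CeA and cortex bulk nuclei, with no call between them. Olfr544, a receptor for azelaic acid, had rank 45 of all members, with 2.85 CPM per kb. Olfr17, Olfr73, Olfr151, Olfr160 and Olfr1507, all studied in the nose, had 1.37 to 1.77 CPM per kb, within the band of the family.

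Of 16 genes of the olfactory signal cascade, 15 were tested. These genes and those of receptor choice below were read with TMM only. Their changes, the smaller ones above all, may differ at the other scalings. With TMM, 6 of them were called higher in CeA and 4 lower in SOM+ nuclei (21.1% and 27.1% of all windows), and 2 higher and 1 lower in bulk nuclei (6.90% and 9.98%), while 0 were called for fear conditioning or the knockout. Gnal, the olfactory type G protein alpha subunit that is also used in the striatum, had 106.9 ± 19.5 CPM in CeA and 83.4 ± 7.66 CPM in cortex SOM+ nuclei (n = 4 each, log2 fold change 0.41 ± 0.15). Gng13, a G protein gamma subunit of olfactory and taste cells, had 15.4 ± 2.74 and 44.3 ± 7.57 CPM (-1.498 ± 0.17). Cnga4, a subunit of the olfactory cyclic nucleotide gated channel, had 13.5 ± 4.49 and 4.38 ± 1.04 CPM (1.68 ± 0.24), and Rtp2, which helps receptors to reach the cell surface, 14.8 ± 2.28 and 4.28 ± 1.63 CPM (1.85 ± 0.24). Omp, the marker of mature olfactory sensory neurons, had a level of 6.28 CPM per kb, below the median of all windows, and Cnga2, the channel subunit that these neurons depend on, 1.77 CPM per kb. The other markers listed for these neurons were Adcy3 with 26.2 and Gng13 with 10.9 CPM per kb, both above that median. Rtp1, with 3.26 CPM per kb, was below it. None of the 5 olfactory sensory neuron markers was at 0 in all libraries.

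Of 23 genes of receptor choice and silencing, all were tested. With TMM, 3 were called higher and 8 lower in CeA in SOM+ nuclei (21.1% and 27.1% of all windows). In bulk nuclei 2 were called higher and 3 lower (6.90% and 9.98%), with 0 called for fear conditioning or the knockout. Ebf1 was higher in CeA in both kinds of nuclei, with 30.8 ± 5.08 against 8.39 ± 0.763 CPM in SOM+ (n = 4 each, 1.94 ± 0.18) and 35.2 ± 5.89 against 20.2 ± 3.11 CPM in bulk nuclei (n = 5 each, 0.76 ± 0.14). Lhx2 was lower in CeA in both, with 31.5 ± 4.00 against 50.3 ± 4.51 CPM in SOM+ (-0.62 ± 0.15) and 22.3 ± 5.33 against 45.5 ± 3.13 CPM in bulk nuclei (-1.003 ± 0.16). Trim28, a corepressor that recruits silencing enzymes, had 140.0 ± 19.7 CPM in CeA and 81.6 ± 12.99 CPM in cortex SOM+ nuclei (0.83 ± 0.16). These levels are of promoter windows and say nothing of protein.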

How the data were processed

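Nuclei of mouse CeA and cortex were profiled by ATAC-seq in 18 libraries. The authors deposited raw read counts per promoter window in mm9, 1 column per library, with no normalization (per the file header and from the values). Tools named in the submitters' processing notes are Bowtie2, MACS2, Picard 1.88, Trimmomatic 0.32 and bcl2fastq 2.16.0.10, in no given order. The counting tool, and its handling of duplicates, the Tn5 offset and reads that map to several places, is not given in the sources used here. Receptor genes are similar in sequence, so such a filter could lower some of them.

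Of 26728 rows, 663 repeated a window and were left out, 7 Olfr rows among them. A filter on low counts (filterByExpr on the groups, with a count of at least 10 and a total of at least 15) came first. TMM scaling and the quasi-likelihood F test of edgeR 4.0.16 (R 4.3.3) followed, with Benjamini-Hochberg adjustment across every window in the fit. The fits used 8 SOM+ libraries (25157 windows, 1104 Olfr, 4 residual degrees of freedom), 10 bulk libraries (25196, 1113 and 5) and all 18 (25246, 1116 and 9), and labelled sex was a term in those with bulk libraries. CPM were scaled with TMM over all 18 libraries. A count of 0 allows up to 3 counts, or 0.205 to 1.13 CPM of the library total, for counting error only. Replicates differed beyond sampling noise, with a chi-square per degree of freedom of 3.30 to 14.8.

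Alternatives were total count scaling, cyclic loess with limma 3.58.1, DESeq2 1.42.0, no filter, a replicate block, no sex term, other limits for the split, no length term and leaving out each library. The scaling to closed Olfr windows, the sex from Y-linked promoters and the count at unadjusted p were added after the data had been seen. Members, lists and limits were chosen with earlier results of these data known. The fits were tested on simulated data. Local alignments scored 1 for a match, -1 for a mismatch, -2 to open and -0.5 to extend a gap.

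Named members were all open ones, up to 3 on each side of the limits, per comparison and direction the 3 called members of smallest p without overlap in CPM (or, with no call, the 1 of smallest p), the 3 highest and 3 lowest closed ones, and 2 to 4 genes of each pathway list. Other members were named after their values had been seen, among them Olfr15, Olfr1386, the neighbours of Olfr452 and Olfr1392, and the best studied receptors.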

Additional observations from a re-analysis of the deposited data

Results flagged for a closer look

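The test of whether the regional difference of SOM+ control nuclei differs from that of bulk WT nuclei called 48 Olfr promoters, where 24.7% of all windows were called. The members with the smallest p in each direction follow, each with the log2 fold change between CeA and cortex in SOM+ control minus that in bulk WT nuclei. The causes were not tested.

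Olfr120 had a difference of 2.77 ± 0.60 (adjusted p = 0.00078). Its means were 8.96 and 1.54 CPM in CeA and cortex SOM+ control and 11.6 and 13.9 CPM in CeA and cortex bulk WT nuclei. It was 2.64 with cyclic loess and 2.01 relative to closed Olfr windows, and called in each. Olfr577 had a difference of 2.27 ± 0.49 (adjusted p = 0.00082), with 6.08 and 2.52 CPM in SOM+ control and 10.3 and 21.8 CPM in bulk WT nuclei, and 1.52 relative to closed Olfr windows (adjusted p = 0.0412).

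Olfr452 had a difference of 1.72 ± 0.40 (adjusted p = 0.0016), with 37.3 and 3.36 CPM in SOM+ control and 31.0 and 9.07 CPM in bulk WT nuclei, so CeA was higher in both. Relative to closed Olfr windows it was 0.94 and was not called (adjusted p = 0.213). Olfr520 had a difference of -2.11 ± 0.69 (adjusted p = 0.0214), with 6.49 ± 1.496 CPM in cortex SOM+ control and 2.09 ± 1.77 CPM in cortex bulk WT nuclei (n = 2 each). It was not called without either CeA SOM+ control, the first cortex SOM+ control, either CeA WT or the second cortex WT library, with adjusted p values of 0.0530 to 0.164.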

How the results depend on the processing

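The counts of Olfr promoters called moved with the scaling. With cyclic loess, 66 members were called between regions in SOM+ nuclei, 77 between regions in bulk nuclei, 216 for SOM+ control against bulk WT in cortex and 26 for the interaction. Relative to closed Olfr windows the counts were 102 between regions in SOM+ nuclei, 41 and 170 for SOM+ control against bulk WT in CeA and cortex, and 25 for the interaction. DESeq2 called 24 between regions in bulk nuclei and 5 for the interaction, where its own filter left 73 and 43 members with an adjusted p. The number of open promoters was 0 with the limit at the upper quartile, 32 at the lower quartile and 2 by the highest group mean.

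Leaving out 1 library gave 182 to 447 calls between regions in SOM+ nuclei, 11 to 57 in bulk nuclei, 19 to 52 and 330 to 541 for SOM+ control against bulk WT in CeA and cortex, 11 to 64 for the interaction and 0 to 2 for the knockout in cortex. It gave median Olfr log2 fold changes of -0.37 to 0.49 for fear conditioning in CeA, -0.052 to 0.10 for the knockout in CeA and -0.19 to 0.019 between regions in bulk nuclei. Medians also turned with cyclic loess, to -0.095 between regions in SOM+ nuclei and -0.040 for the knockout in cortex. Relative to closed Olfr windows they turned to -0.023 and -0.0079 for fear conditioning in CeA and cortex and to 0.0017 between regions in bulk nuclei. For the knockout in CeA the median turned to -0.26 with no sex term and to -0.25 with sex from Y-linked promoters. Why the counts and medians moved was not tested. For members named by the rule, 371 values under alternatives kept their direction and side of the threshold, 24 fell short of it and 1 newly passed it.

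With the replicate number as a block the counts were 300 and 45 between regions in SOM+ and bulk nuclei, 105 and 647 for SOM+ control against bulk WT in CeA and cortex, 53 for the interaction and 0 for fear conditioning and the knockout. In each SOM+ group replicate 1 is labelled male and replicate 2 female, so there the block is also a term for labelled sex. The correlations of deviations between samples with the same number ran from -0.34 to 0.42, and the numbers were not taken to pair the samples.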
